A study of Mus musculus with 23 samples.

Results

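Type I interferon response genes were measured in the hippocampus of mice that differ in 2 loci, App and the p16 locus. The genes were a list of 44 interferon-stimulated genes, chosen by symbol, and all 44 were present among the 37173 genes of the deposited count table. Of these, 43 had enough reads to be among the 19423 genes tested, and the other one, Oas3, had 0 to 12 reads a library. Each of the 23 libraries came from both hippocampi of 1 mouse aged about 5 months and held polyadenylated RNA. There were 6 libraries of APP<NLGF/NLGF>P16<KO/KO> mice (called APP NLGF P16 KO here, libraries 18 to 23), 5 of APP NLGF mice homozygous for APP<NLGF/NLGF> (13 to 17), 6 of P16 KO mice homozygous for P16<KO/KO> (7 to 12) and 6 of WT mice (1 to 6). NLGF is a knock-in of familial Alzheimer mutations into a humanised amyloid sequence of the mouse App gene, so the mutant protein is made under the gene's own promoter. The p16 protein is encoded by Cdkn2a and restrains the cell cycle by blocking the cyclin D kinases. Which bases of the gene were removed, and whether in every cell, is not given in the labels.

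Type I interferons are secreted proteins that signal through the receptor formed by Ifnar1 and Ifnar2, which activates the kinases Jak1 and Tyk2. Stat2 is phosphorylated and acts with Irf9 in the factor ISGF3, which binds the interferon-stimulated response element in the promoters of its target genes. The targets include RNA sensors, enzymes that degrade viral RNA or stop its translation, and membrane proteins that block virus entry or release. In the brain, microglia respond strongly to interferon, and a tonic, low level of the response is present without infection.

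Total counts were 48.6e6 to 59.5e6 in APP NLGF P16 KO, 40.7e6 to 57.0e6 in APP NLGF, 45.4e6 to 61.2e6 in P16 KO and 54.6e6 to 58.7e6 in WT libraries. Levels are counts per 1e6 counts of the library (CPM). The library with the fewest counts, APP NLGF 17, was also the one with the highest interferon genes. The main edgeR results over the members that rest on it are given with and without it, and those of single members in part. DESeq2 was not refitted without it. Cdkn2a, the gene of the P16 label, was near the floor of detection, with 24 reads summed over the APP NLGF P16 KO libraries, 25 over APP NLGF, 4 over P16 KO and 17 over WT, so these reads do not check the label and directions refer to the libraries as labelled.

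The interferon-stimulated response element is the DNA sequence that carries the response to the promoter, and 16 of 33 members (48.5%) with a promoter in the RefSeq table held its pattern, GAAA, any 2 bases and GAAA, on either strand (TTTC, any 2 bases and TTTC on the other). Among all 27025 genes of that table, 1079 (3.99%) held it. The windows ran from 250 bases before to 50 after the annotated start (GRCm38.p6), both strands were searched and overlapping matches were counted. In 33 of 39 member windows the bases after the start lay in an annotated transcript of the gene. By these windows 8 of 15 members that fell in the average P16 KO effect described below held the pattern, and 8 of 18 other members did. A match of letters is a description and not a shown binding site. The 200 bases before the annotated start are printed below for the 3 Ifit genes whose levels are described next, for Isg15, whose 3 matches overlap, and for Oasl1, which had the lowest log2 value in libraries labelled P16 KO and no match in its window. Capitals mark the matches, and each sequence is written 5′ to 3′ on the strand of its gene.
Ifit1: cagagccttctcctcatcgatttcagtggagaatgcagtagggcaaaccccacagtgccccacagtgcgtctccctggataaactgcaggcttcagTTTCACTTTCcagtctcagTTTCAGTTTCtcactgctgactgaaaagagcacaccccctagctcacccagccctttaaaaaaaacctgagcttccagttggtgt
Ifit3: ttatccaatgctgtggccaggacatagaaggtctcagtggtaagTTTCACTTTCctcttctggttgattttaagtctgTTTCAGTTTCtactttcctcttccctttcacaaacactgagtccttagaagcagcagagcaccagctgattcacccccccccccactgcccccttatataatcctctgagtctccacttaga
Ifit3b: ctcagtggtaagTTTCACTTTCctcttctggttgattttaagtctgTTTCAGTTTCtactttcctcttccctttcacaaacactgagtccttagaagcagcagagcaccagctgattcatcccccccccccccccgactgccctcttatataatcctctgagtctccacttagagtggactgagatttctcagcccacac
Isg15: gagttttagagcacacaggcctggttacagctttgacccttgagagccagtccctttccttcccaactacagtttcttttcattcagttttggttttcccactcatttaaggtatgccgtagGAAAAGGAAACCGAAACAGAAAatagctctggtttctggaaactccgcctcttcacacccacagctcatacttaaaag
Oasl1: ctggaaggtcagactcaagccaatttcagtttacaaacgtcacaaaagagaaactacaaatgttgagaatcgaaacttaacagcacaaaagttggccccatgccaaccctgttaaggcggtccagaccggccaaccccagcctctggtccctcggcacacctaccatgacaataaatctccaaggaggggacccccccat

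The Ifit1 sequence lies at chr19:34640689-34640888 on the plus strand, with matches 104 and 85 bases before the start. That of Ifit3 lies at chr19:34583329-34583528 (plus), with matches at 156 and 122 bases, and that of Ifit3b at chr19:34607757-34607956 (plus), with matches at 188 and 154 bases. The Ifit3 and Ifit3b sequences were the same in 166 of the 174 positions at which they overlap (95.4%), offset by the position of their annotated starts. Isg15 is at chr4:156200819-156201018 on the minus strand, where 3 matches begin 78, 72 and 66 bases before the start and form 1 run. Oasl1 is at chr5:114923040-114923239 (plus).

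**Figure D1:**
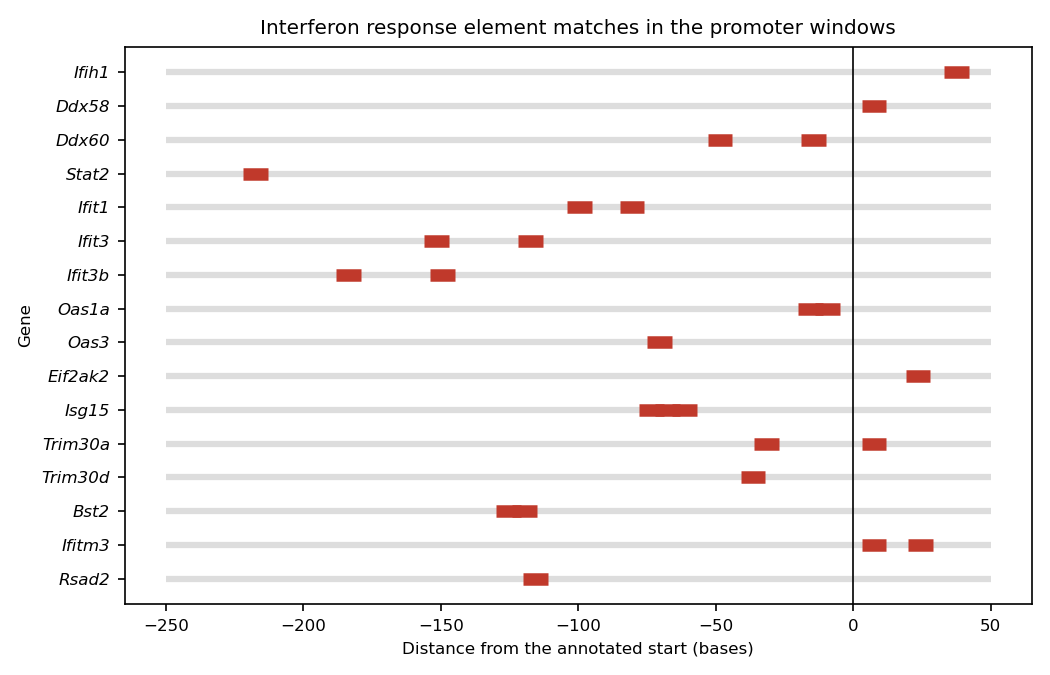
Matches to the response element pattern (red) in the promoter windows (grey) of the 16 members that held one, against distance from the annotated start in bases; Trim30a combines its 2 windows with a match. Matches lay on both sides of the start. The windows of Ifit1, Ifit3 and Ifit3b held 2 matches each, as did those of Ddx60, Oas1a, Bst2 and Ifitm3.

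The members lie on 15 chromosomes, and 19 of them in 7 groups of neighbours. Ifit2, Ifit3, Ifit3b and Ifit1 lie within 99.3 kb of chromosome 19 (34550694 to 34650009, GRCm38). Oas2, Oas3, Oas1b and Oas1a span 177 kb of chromosome 5 (120730333 to 120907521), and Oasl2 and Oasl1 span 41.0 kb of the same chromosome (114896936 to 114937915). Parp14, Dtx3l and Parp9 are neighbours on chromosome 16, Rsad2 and Cmpk2 as well as Ifi27 and Ifi27l2a on chromosome 12, and Trim30a and Trim30d on chromosome 7. Isg15 and Ddx58 share chromosome 4 with Cdkn2a, at 66.9 and 49.1 Mb from it. Interferon genes outside the members lie nearer: Ifne, Ifnz, Ifnab, Ifna2 and Ifna16 start 0.395 to 0.599 Mb from the start of Cdkn2a. The part of alleles linked to the p16 locus was not tested. Copies were not fully separable in 50-base reads. Ifit3 shared 51.2% and Ifit3b 45.0% of their 50-base windows with another gene, mainly with each other. Oas1a shared 57.6%, mainly with Oas1g, and every other member shared at most 12.5%. Only uniquely aligned reads were counted, so the values of Ifit3, Ifit3b and Oas1a rest on the bases in which they differ from their copies.

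Levels in WT differed widely between the members. Per kb of median transcript length, Ifi27, a small hydrophobic interferon-induced protein, had the highest WT mean at 51.1 CPM per kb. It was followed by the signal transducer Stat2 (29.3 CPM per kb), the secreted galectin-binding glycoprotein Lgals3bp (26.4 CPM per kb) and the mitochondrial nucleotide kinase Cmpk2 (14.0 CPM per kb). The lowest were Oas2 (0.169), the Z-form nucleic acid sensor Zbp1 (0.0860) and Oas3 (0.0245 CPM per kb). This order depends on the length used, a median over transcripts of 830 bases for Stat2, 686 for Lgals3bp and 1888 for Cmpk2. In CPM the WT means were 36.2 for Ifi27, 26.5 for Cmpk2, 24.3 for Stat2 and 18.1 for Lgals3bp. Ligand genes were at the floor: the 6 interferon genes in the table had 1 to 5 reads each over all 23 libraries, and Ifnb1 was not analysed here. The receptor genes were detected in every group. Ifnar1 averaged 46.3 ± 1.70 CPM in APP NLGF P16 KO, 46.2 ± 1.38 in APP NLGF, 45.3 ± 1.34 in P16 KO and 46.1 ± 1.49 in WT (SD, n = 6, 5, 6 and 6). Ifnar2 averaged 15.5 ± 0.837, 16.0 ± 1.53, 14.9 ± 1.23 and 13.9 ± 0.914 CPM in the same order, and was higher in 5 of 5 APP NLGF libraries than the WT mean without passing the adjusted test (log2 0.19 ± 0.07, adjusted p = 0.438, unadjusted p = 0.0138).

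The question put to the P16 KO label was whether it changed the members over both App genotypes. The average P16 KO effect is the mean of 2 differences, APP NLGF P16 KO minus APP NLGF and P16 KO minus WT. In it 17 of the 43 members tested fell, 0 rose and 41 of 43 log2 values were negative (edgeR quasi-likelihood F test, two-sided, adjusted p under 0.05 after Benjamini-Hochberg adjustment over the 19423 genes). Of all genes tested, 5.32% were called lower, 7.66% higher and 13% in either direction in this contrast. The members' median log2 difference was -0.32, against 0.00 for all genes, and the values of those called ran from -1.71 to -0.20. DESeq2 called 22 members, all lower, and left 4 without an adjusted p, while it called 3384 of all genes, 8.53% lower and 8.90% higher. With no filter on low counts edgeR called 12 members, all among the 17, beside 1.22% of all genes lower. In bulk tissue, fewer cells of a type and less RNA per cell cannot be told apart. Without APP NLGF 17, 9 members were called and the median was -0.23, with 2.21% of all genes called lower. Leaving out APP NLGF 16 also left 9, with 1.19% of all genes called lower. These 9 in each case were among the 17, and the same 9 members were called in every one of the 23 fits without 1 library: Oasl1, Ifit1, Ifih1, Ifit3, Sp100, Eif2ak2, Herc6, Ifit3b and Oasl2.

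**Figure D2:**
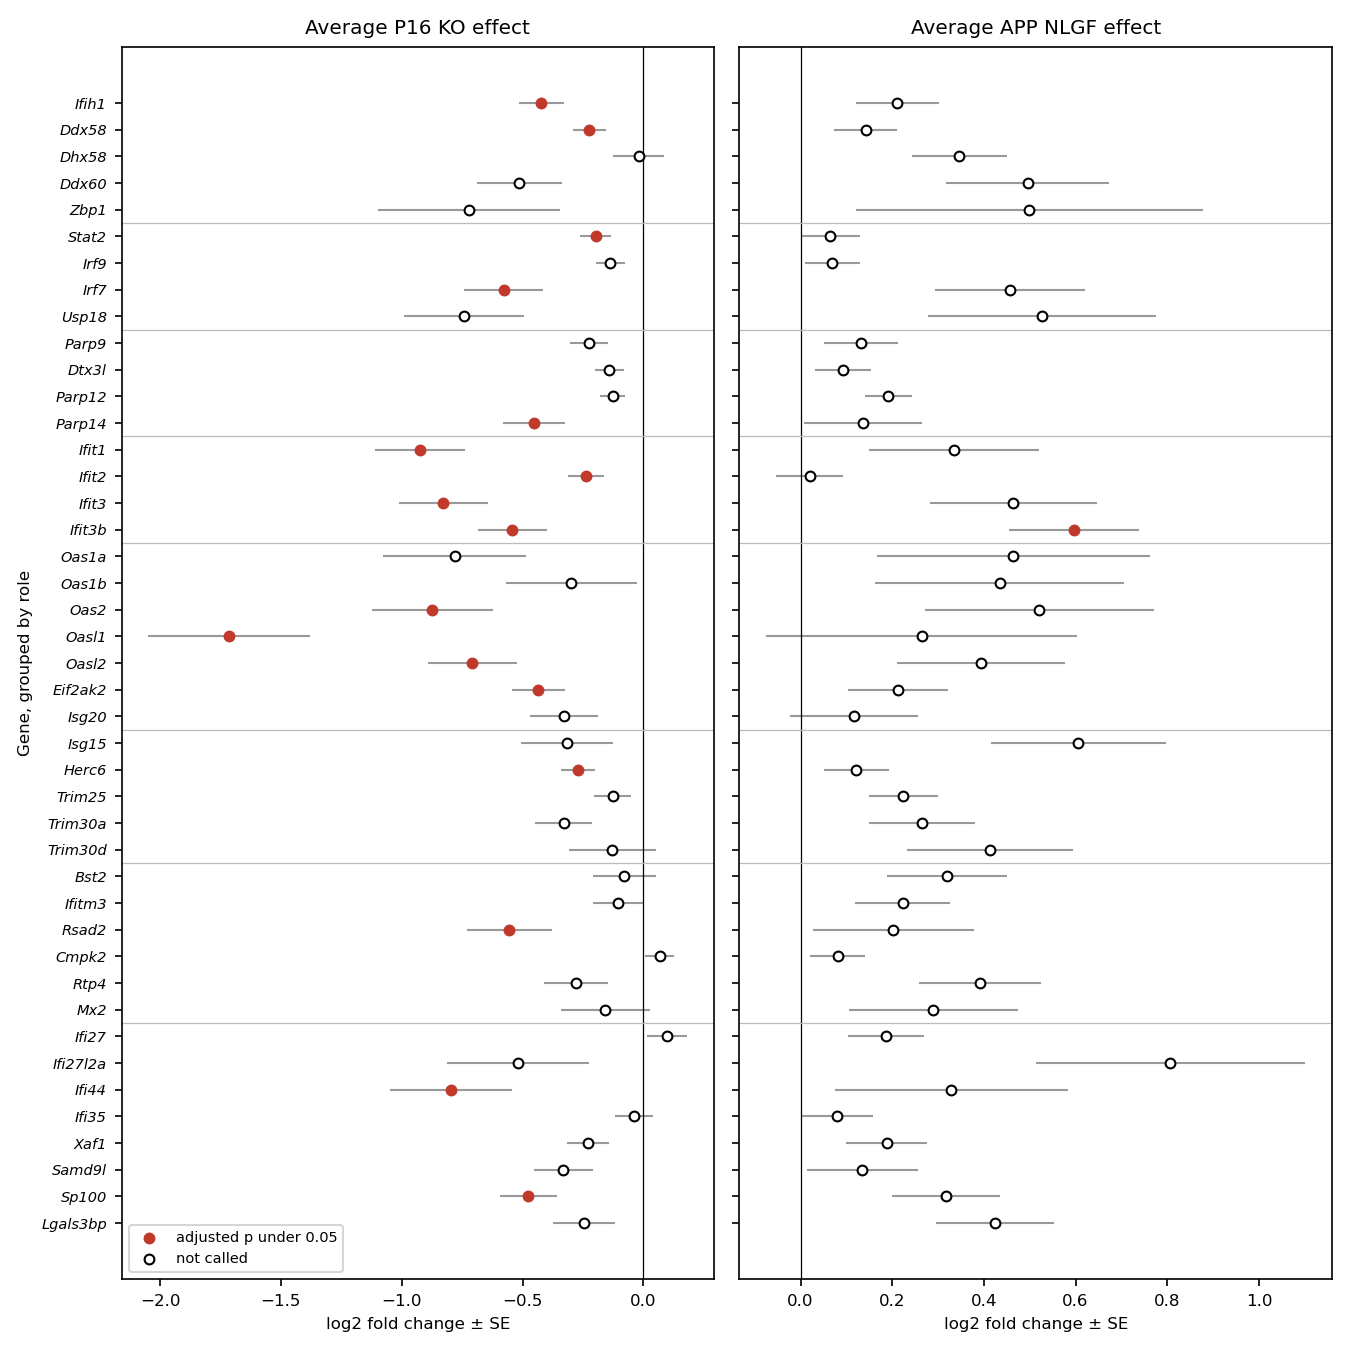
Average P16 KO effect (left) and average APP NLGF effect (right) on each member tested, as log2 fold change with its SE (bars), in the order of their roles; grey lines separate roles. Red points passed the adjusted p of 0.05, and these were 17 members, all negative, on the left and Ifit3b on the right.

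In the following, groups of 6 libraries are given by their lowest, median and highest value, and the 5 APP NLGF libraries by each value in the order 13 to 17.

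The IFIT family was the role in which all members tested (4 of 4) fell in the average P16 KO effect, with a median log2 of -0.69. Ifit1 had 0.959, 1.65 and 2.10 CPM in APP NLGF P16 KO, against 2.77, 2.14, 2.56, 4.35 and 6.32 CPM in APP NLGF. In P16 KO, Ifit1 had 1.19, 1.28 and 2.48 CPM, against 1.55, 2.31 and 3.68 CPM in WT. The APP NLGF P16 KO values of Ifit1 all lay below those of APP NLGF, whereas P16 KO overlapped WT through P16 KO 8 and P16 KO 10. Ifit1 encodes the cap-sensing member, which binds viral RNA that lacks the cap marks of the host and holds back its translation. Ifit1 was 1.90-fold lower on average (log2 -0.92 ± 0.19, adjusted p = 0.00877, and -0.78 without APP NLGF 17). Ifit3 had 2.59, 3.37 and 4.54 CPM in APP NLGF P16 KO, against 4.99, 5.31, 4.05, 6.45 and 13.7 CPM in APP NLGF. In P16 KO, Ifit3 had 1.49, 2.87 and 3.62 CPM, against 2.98, 4.48 and 5.62 CPM in WT. Ifit3 had 1 APP NLGF value above all others, in library 17, while APP NLGF 15 lay inside the range of APP NLGF P16 KO. P16 KO and WT overlapped. Its average was 1.78-fold lower (log2 -0.83 ± 0.18, adjusted p = 0.0115, and -0.63 without APP NLGF 17).

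Ifit3b had 2.06, 2.29 and 2.61 CPM in APP NLGF P16 KO, against 2.45, 3.06, 3.12, 3.97 and 7.10 CPM in APP NLGF. In P16 KO, Ifit3b had 0.997, 1.86 and 2.20 CPM, against 1.96, 2.16 and 2.53 CPM in WT. Ifit3b, the near copy of Ifit3, overlapped between APP NLGF P16 KO and APP NLGF in APP NLGF library 13 and was 1.46-fold lower on average (log2 -0.54 ± 0.14, adjusted p = 0.0199, -0.38 without APP NLGF 17). Ifit2 had 8.54, 8.73 and 10.1 CPM in APP NLGF P16 KO, against 10.1, 8.92, 7.83, 10.6 and 14.0 CPM in APP NLGF. In P16 KO, Ifit2 had 7.40, 8.57 and 9.63 CPM, against 9.30, 10.5 and 11.7 CPM in WT. Ifit2, which binds RNA and pairs with other proteins of the family, had overlapping groups in both pairs and the smallest average change of the family (log2 -0.24 ± 0.07, adjusted p = 0.0365). Its call ended without a filter on low counts (adjusted p = 0.0561) and in 10 of 23 fits without 1 library (up to 0.0786 without APP NLGF 17).

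**Figure D3:**
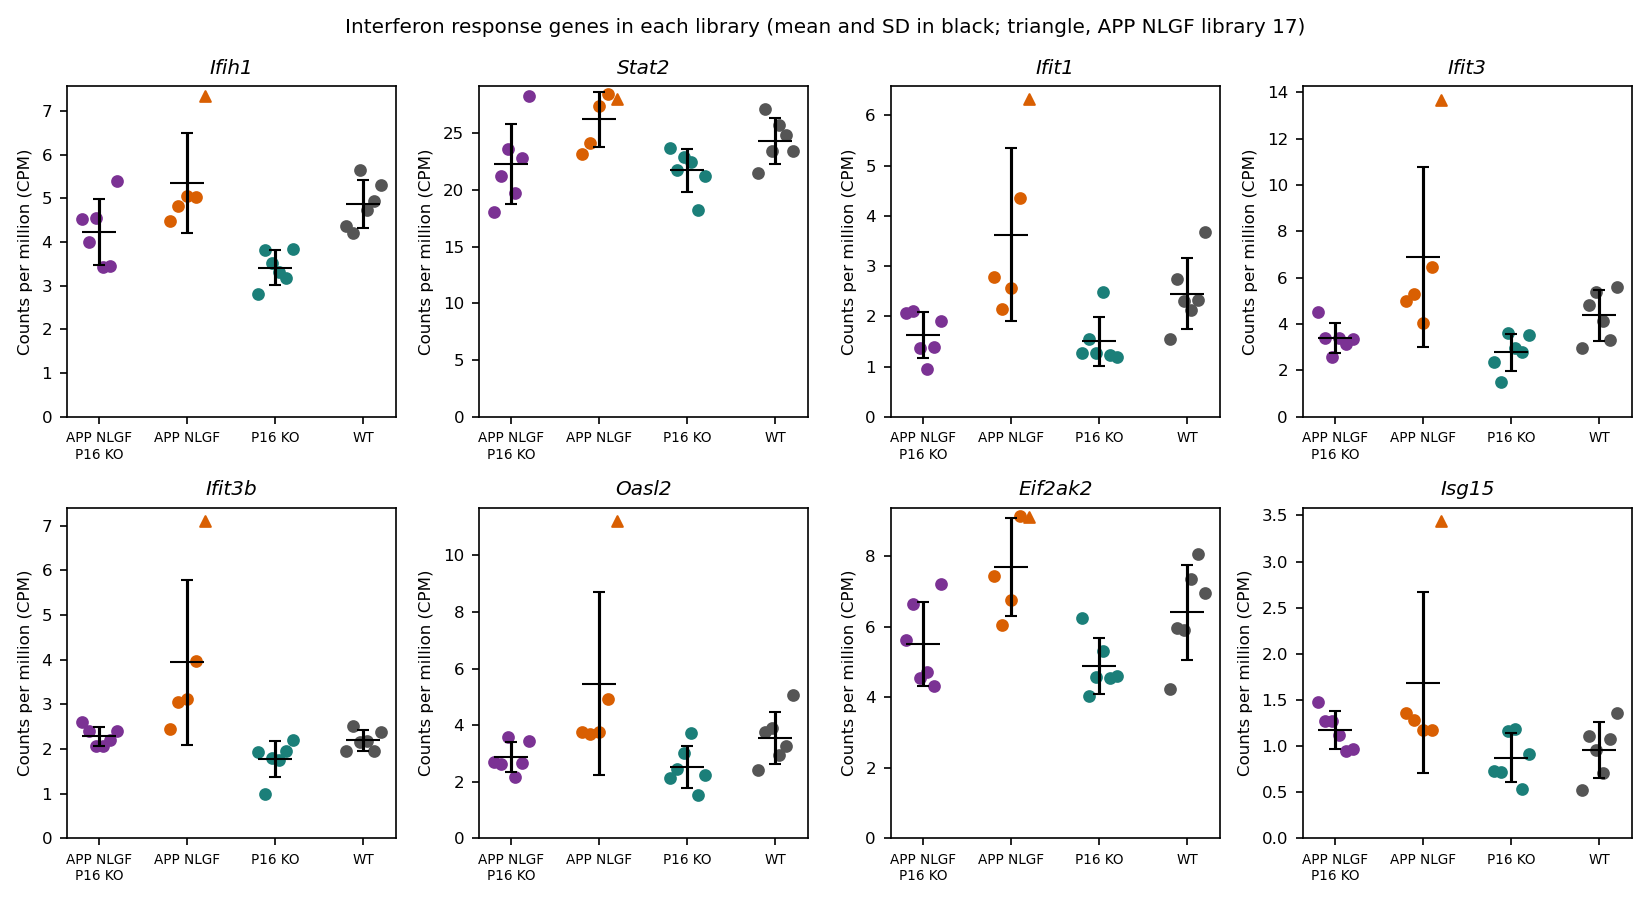
CPM of 8 members in each library, with groups from APP NLGF P16 KO on the left to WT on the right; black lines are the group mean and SD, and the triangle is APP NLGF 17. The triangle is the highest point of APP NLGF in 6 of the 8 panels, all but Stat2 and Eif2ak2, and 13.7 CPM for Ifit3 against at most 6.45 in the other libraries.

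Among the oligoadenylate synthetase family, the kinase gene Eif2ak2 and the exonuclease gene Isg20, 4 of 7 tested fell in the average P16 KO effect. All 7 log2 values were negative (median -0.71). Oasl1 had 0, 0.130 and 0.172 CPM in APP NLGF P16 KO, against 0.287, 0.238, 0.228, 0.285 and 0.688 CPM in APP NLGF. In P16 KO, Oasl1 had 0.0383, 0.0756 and 0.158 CPM, against 0.136, 0.272 and 0.476 CPM in WT. Oasl1, which in mice holds back the translation of Irf7, was scarce, with 0 to 28 reads a library, and all APP NLGF P16 KO values lay below those of APP NLGF. APP NLGF P16 KO 21 had 0 reads, where 3 reads would have been 0.0523 CPM. P16 KO and WT overlapped in 1 library of each. Oasl1 had the lowest average log2 value of the members (log2 -1.71 ± 0.33, adjusted p = 0.00709, -1.52 without APP NLGF 17), a fit to few reads.

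Oasl2 had 2.18, 2.69 and 3.58 CPM in APP NLGF P16 KO, against 3.77, 3.68, 3.76, 4.93 and 11.2 CPM in APP NLGF. In P16 KO, Oasl2 had 1.55, 2.35 and 3.72 CPM, against 2.40, 3.51 and 5.05 CPM in WT. Oasl2, a related gene whose product has ubiquitin-like repeats, did not overlap between APP NLGF P16 KO and APP NLGF, and overlapped between P16 KO and WT. Its average change was 1.63-fold lower (log2 -0.71 ± 0.18, adjusted p = 0.0202, -0.49 without APP NLGF 17). Eif2ak2 had 4.33, 5.18 and 7.19 CPM in APP NLGF P16 KO, against 7.44, 6.05, 6.76, 9.12 and 9.12 CPM in APP NLGF. In P16 KO, Eif2ak2 had 4.02, 4.58 and 6.25 CPM, against 4.24, 6.45 and 8.04 CPM in WT. Eif2ak2 encodes PKR, the kinase that stops translation when it binds double-stranded RNA. It was 1.35-fold lower on average (log2 -0.44 ± 0.11, adjusted p = 0.0175), with overlapping groups in both pairs.

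Oas2 had 0.178, 0.337 and 0.947 CPM in APP NLGF P16 KO, against 0.363, 0.678, 0.579, 0.748 and 1.11 CPM in APP NLGF. In P16 KO, Oas2 had 0.111, 0.293 and 0.375 CPM, against 0.290, 0.521 and 0.739 CPM in WT. Oas2, one of the enzymes that make the oligoadenylates that activate RNase L, was low in all groups and lower on average (log2 -0.87 ± 0.25, adjusted p = 0.0273). Its call ended without APP NLGF 16 (0.0572) and without APP NLGF 17 (0.0608). The other 3 tested members of this role, Oas1a, Oas1b and the exonuclease gene Isg20, did not pass (log2 -0.78, -0.30 and -0.33, adjusted p = 0.0769, 0.485 and 0.111). Oas3 had 0 to 0.204 CPM in APP NLGF P16 KO, 0.0176 to 0.147 in APP NLGF, 0.0369 to 0.238 in P16 KO and 0.0341 to 0.124 in WT, and was not tested.

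Of the 5 nucleic acid sensors, 2 fell in the average P16 KO effect, and all 5 values were negative (median log2 -0.42). Ifih1 had 3.44, 4.26 and 5.40 CPM in APP NLGF P16 KO, against 4.48, 4.84, 5.06, 5.02 and 7.35 CPM in APP NLGF. In P16 KO, Ifih1 had 2.82, 3.42 and 3.85 CPM, against 4.20, 4.84 and 5.66 CPM in WT. Ifih1 encodes MDA5, the sensor of long double-stranded RNA, and was the 1 member whose P16 KO libraries all lay below WT. In the second pair the groups overlapped. Ifih1 was 1.34-fold lower on average (log2 -0.42 ± 0.09, adjusted p = 0.0106, -0.35 without APP NLGF 17). Ddx58 had 5.20, 6.32 and 6.63 CPM in APP NLGF P16 KO, against 6.75, 6.52, 6.92, 7.98 and 9.85 CPM in APP NLGF. In P16 KO, Ddx58 had 5.07, 5.80 and 6.42 CPM, against 5.92, 6.45 and 7.58 CPM in WT. Ddx58 encodes RIG-I, the sensor of RNA ends that carry a triphosphate, and its groups overlapped in both pairs. Its average value was -0.22 ± 0.07 (adjusted p = 0.0354), and its call ended without a filter on low counts (0.0757) and in 9 of 23 fits without 1 library.

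Ddx60 had 0.593, 1.36 and 1.62 CPM in APP NLGF P16 KO, against 2.08, 1.70, 1.05, 1.83 and 3.51 CPM in APP NLGF. In P16 KO, Ddx60 had 0.608, 0.938 and 1.47 CPM, against 1.00, 1.23 and 1.60 CPM in WT. Ddx60, a helicase gene of the same pathway, had its highest value in APP NLGF 17 and its lowest in APP NLGF P16 KO 21, and did not pass (log2 -0.51 ± 0.18, adjusted p = 0.0550). Zbp1 (log2 -0.72 ± 0.38, adjusted p = 0.193) and Dhx58, the LGP2 gene (log2 -0.02 ± 0.10, adjusted p = 0.916), did not pass either. Zbp1 was scarce, with 2 to 39 reads a library.

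Of the 4 genes of signalling and feedback, 2 fell in the average P16 KO effect, and all 4 values were negative (median log2 -0.39). Stat2 had 18.0, 22.1 and 28.3 CPM in APP NLGF P16 KO, against 23.1, 24.2, 27.4, 28.4 and 28.0 CPM in APP NLGF. In P16 KO, Stat2 had 18.3, 22.1 and 23.7 CPM, against 21.5, 24.1 and 27.2 CPM in WT. Stat2, the ISGF3 subunit specific to type I and type III interferon signalling, changed least among the members called (log2 -0.20 ± 0.06, adjusted p = 0.0416). The groups overlapped in both pairs. Its call ended without a filter on low counts (0.0586) and in 15 of 23 fits without 1 library (up to 0.0901). Irf7 had 1.19, 1.50 and 2.20 CPM in APP NLGF P16 KO, against 1.26, 2.75, 2.32, 2.55 and 4.23 CPM in APP NLGF. In P16 KO, Irf7 had 0.940, 1.09 and 1.88 CPM, against 1.36, 1.55 and 2.18 CPM in WT. Irf7, the factor that drives transcription of interferon genes, was 1.49-fold lower on average (log2 -0.58 ± 0.16, adjusted p = 0.0260), and lost its call without APP NLGF 16 (0.0528) or 17 (0.0624). Irf9, the DNA-binding subunit of ISGF3 (log2 -0.14 ± 0.06, adjusted p = 0.119), did not pass. Usp18, which removes Isg15 from proteins and restrains the receptor, was just outside the threshold (log2 -0.74 ± 0.25, adjusted p = 0.0503).

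Of the 5 genes of Isg15 conjugation and the tripartite-motif ligases, 1 fell in the average P16 KO effect. Herc6 had 3.68, 4.73 and 5.07 CPM in APP NLGF P16 KO, against 6.06, 6.03, 5.06, 6.77 and 8.01 CPM in APP NLGF. In P16 KO, Herc6 had 4.44, 4.86 and 5.19 CPM, against 4.64, 5.09 and 5.65 CPM in WT. Herc6, the main ligase for Isg15 in mice, overlapped between the groups of both pairs, with 1 APP NLGF value, that of library 15, inside the range of APP NLGF P16 KO. Its average value was -0.27 ± 0.07 (adjusted p = 0.0196, -0.23 without APP NLGF 17). Trim25 had 7.44, 8.61 and 10.0 CPM in APP NLGF P16 KO, against 8.84, 10.1, 9.37, 9.33 and 12.8 CPM in APP NLGF. In P16 KO, Trim25 had 6.23, 8.18 and 9.06 CPM, against 7.03, 7.80 and 9.53 CPM in WT. Trim25, the ligase that acts on RIG-I, did not pass (log2 -0.13 ± 0.08, adjusted p = 0.255). Isg15 itself, the ubiquitin-like modifier, was among the members with no call (log2 -0.32 ± 0.19, adjusted p = 0.262). Its APP NLGF libraries 13 to 16 lay between 1.18 and 1.36 CPM and library 17 at 3.44 CPM. Trim30a (log2 -0.33 ± 0.12, adjusted p = 0.0591) and Trim30d (log2 -0.13 ± 0.18, adjusted p = 0.670) did not pass.

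Of the 4 genes of ADP-ribosylation, Parp14 fell on average and all 4 values were negative (median log2 -0.18). Parp14 had 2.10, 2.97 and 4.27 CPM in APP NLGF P16 KO, against 3.44, 3.28, 3.14, 5.00 and 6.46 CPM in APP NLGF. In P16 KO, Parp14 had 2.34, 2.78 and 3.27 CPM, against 2.93, 3.79 and 4.17 CPM in WT. Parp14, a mono-ADP-ribosyltransferase, overlapped in both pairs (log2 -0.45 ± 0.13, adjusted p = 0.0260), and its call ended without APP NLGF 16 (0.0637) or 17 (0.0621). Parp12 had 11.0, 11.7 and 13.5 CPM in APP NLGF P16 KO, against 13.8, 12.1, 13.5, 16.2 and 14.6 CPM in APP NLGF. In P16 KO, Parp12 had 9.71, 11.5 and 12.0 CPM, against 10.2, 11.6 and 11.9 CPM in WT. Parp12, the most abundant of the role in CPM, did not pass (log2 -0.13 ± 0.05, adjusted p = 0.0954). Parp9 and its E3 partner Dtx3l, neighbours that share a promoter region, did not pass either (log2 -0.23 ± 0.08 and -0.14 ± 0.06, adjusted p = 0.0613 and 0.110).

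Of the 6 membrane, entry and nucleotide effectors, Rsad2 fell on average (median log2 of the role -0.13). Rsad2 had 0.889, 1.32 and 1.65 CPM in APP NLGF P16 KO, against 2.18, 1.91, 1.21, 1.98 and 4.40 CPM in APP NLGF. In P16 KO, Rsad2 had 0.922, 1.23 and 2.02 CPM, against 1.14, 1.71 and 2.22 CPM in WT. Rsad2 encodes viperin, which makes a chain-terminating nucleotide (log2 -0.55 ± 0.18, adjusted p = 0.0388), and its call ended without a filter on low counts (0.0566) and in 12 of 23 fits without 1 library (up to 0.0994). Cmpk2 had 24.4, 29.5 and 35.1 CPM in APP NLGF P16 KO, against 24.4, 27.8, 23.1, 24.1 and 31.6 CPM in APP NLGF. In P16 KO, Cmpk2 had 22.4, 26.3 and 27.3 CPM, against 24.6, 25.7 and 30.8 CPM in WT. Cmpk2, the neighbour of Rsad2, was 1 of 2 members with a positive average value (log2 0.07 ± 0.06, adjusted p = 0.483). Rtp4 had 2.14, 2.34 and 2.44 CPM in APP NLGF P16 KO, against 2.49, 2.16, 3.11, 2.83 and 5.70 CPM in APP NLGF. In P16 KO, Rtp4 had 1.53, 2.02 and 2.44 CPM, against 1.67, 1.98 and 2.90 CPM in WT. Rtp4, an interferon-induced chaperone of membrane receptors, did not pass (log2 -0.28 ± 0.13, adjusted p = 0.150). Bst2, the tetherin gene, Ifitm3, which blocks virus fusion, and the dynamin-like Mx2 did not pass (log2 -0.08 ± 0.13, -0.11 ± 0.10 and -0.16 ± 0.18, adjusted p = 0.725, 0.519 and 0.597).

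Of the other 8 members, Sp100 and Ifi44 fell on average. Sp100 had 1.92, 2.21 and 2.88 CPM in APP NLGF P16 KO, against 2.75, 2.25, 3.39, 3.03 and 4.50 CPM in APP NLGF. In P16 KO, Sp100 had 1.36, 1.85 and 2.16 CPM, against 2.13, 2.29 and 3.61 CPM in WT. Sp100, a protein of nuclear bodies, overlapped in both pairs and was 1.39-fold lower on average (log2 -0.48 ± 0.12, adjusted p = 0.0165, -0.40 without APP NLGF 17). Ifi44 had 0.366, 0.535 and 0.809 CPM in APP NLGF P16 KO, against 0.861, 0.934, 0.649, 0.819 and 2.06 CPM in APP NLGF. In P16 KO, Ifi44 had 0.154, 0.525 and 0.733 CPM, against 0.273, 0.746 and 1.29 CPM in WT. Ifi44 was lower on average (log2 -0.80 ± 0.25, adjusted p = 0.0403), and its call ended without a filter on low counts (0.0721) and in 14 of 23 fits without 1 library (up to 0.0988). Ifi27 had 40.8, 43.2 and 50.0 CPM in APP NLGF P16 KO, against 43.3, 38.8, 48.4, 42.6 and 53.7 CPM in APP NLGF. In P16 KO, Ifi27 had 31.2, 40.8 and 53.8 CPM, against 30.8, 35.1 and 44.8 CPM in WT. Ifi27 was the other member with a positive average value (log2 0.10 ± 0.08, adjusted p = 0.446). Lgals3bp had 15.3, 21.7 and 24.1 CPM in APP NLGF P16 KO, against 28.9, 20.5, 28.0, 28.1 and 38.0 CPM in APP NLGF. In P16 KO, Lgals3bp had 12.5, 16.3 and 25.3 CPM, against 14.0, 17.1 and 24.6 CPM in WT. Lgals3bp varied within each group and did not pass (log2 -0.25 ± 0.13, adjusted p = 0.197). The remaining 4, Ifi27l2a, Ifi35, Xaf1 and Samd9l, had log2 values of -0.52, -0.04, -0.23 and -0.33 (adjusted p = 0.234, 0.769, 0.0804 and 0.0685).

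The 2 differences behind the average were next taken apart. Between P16 KO and WT, edgeR called 0 of 43 members, with 0.309% of all genes called in either direction. DESeq2 called 1, Ifih1, as lower, beside 0.577% of all genes lower and 1.84% higher. In edgeR an unadjusted p under 0.05 was found for 10 members, all lower, beside 6.57% of all genes lower and 9.24% higher. The members' median log2 was -0.17, against -0.01 for all genes, and 39 of 43 values were negative. Ifih1 had the smallest adjusted p (log2 -0.52 ± 0.13, adjusted p = 0.0701, lower in 6 of 6), followed by Oasl1 (log2 -1.76 ± 0.47, adjusted p = 0.0871, lower in 6 of 6). In fits without 1 library, edgeR called 0 to 2 members here. Ifih1 was the 1 member with P16 KO entirely below WT, as were 0.541% of all genes, and 0 members lay entirely above, as did 1.32% of all genes.

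Between APP NLGF P16 KO and APP NLGF, edgeR and DESeq2 called 0 of 43 members, with 39 members left without an adjusted p by DESeq2, and edgeR called 0.0309% of all genes. An unadjusted p under 0.05 was found for 28 members, all lower, beside 10.8% of all genes lower and 12.8% higher. The median log2 was -0.46, against 0.01 for all genes, and 41 of 43 values were negative. By role the medians ran from -0.28 for the membrane, entry and nucleotide effectors and for ADP-ribosylation to -0.73 for the synthetases and PKR and -0.89 for the IFIT family. In 4 members, Ifit1, Oasl1, Oasl2 and Dtx3l, all APP NLGF P16 KO libraries lay below all APP NLGF libraries, as did 0.597% of all genes, and 0 members lay entirely above, as did 0.535% of all genes. The smallest adjusted p was that of Herc6 (log2 -0.46 ± 0.10, adjusted p = 0.111, lower in 6 of 6). This comparison depended on single libraries: without APP NLGF 17 the median was -0.21, 11 members were lower at an unadjusted p under 0.05 and 1, Cmpk2, was higher (log2 0.25), beside 9.01% of all genes lower and 11.1% higher, and without APP NLGF P16 KO 23 edgeR called 19 members among 4156 genes.

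The question put to the App knock-in was whether it changed the members where p16 is present. Between APP NLGF and WT, edgeR called 0 of 43 members, beside 0.319% of all genes. An unadjusted p under 0.05 was found for 21 members, all higher, beside 4.35% of all genes higher and 4.19% lower. DESeq2 called 3, Ifit3b, Lgals3bp and Parp12, all higher, beside 0.649% of all genes higher and 0.139% lower. The members' median log2 was 0.38, against 0.00 for all genes, and 41 of 43 values were positive. Without APP NLGF 17 the median was 0.19 and 5 members had an unadjusted p under 0.05, all higher, beside 4.83% of all genes higher and 4.82% lower. The smallest adjusted p was that of Ifit3b, which averaged 3.94 ± 1.85 CPM in APP NLGF and 2.19 ± 0.228 CPM in WT (SD, n = 5 and 6; log2 0.83 ± 0.20, adjusted p = 0.0888, higher in 5 of 5). Parp12 was the 1 member with every APP NLGF library above every WT library, as were 1.16% of all genes, and 0 members lay entirely below, as did 0.489%. It averaged 14.0 ± 1.48 CPM in APP NLGF and 11.4 ± 0.631 CPM in WT (log2 0.29 ± 0.07, adjusted p = 0.113).

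Where the p16 label was KO in both groups, APP NLGF P16 KO minus P16 KO, edgeR and DESeq2 called 0 of 43 members, with 0.247% of all genes called by edgeR. An unadjusted p under 0.05 was found for 4 members, all higher (Ifih1, Dhx58, Cmpk2 and Sp100), beside 4.59% of all genes higher and 3.3% lower. The median log2 was 0.18, against 0.01 for all genes, with 37 of 43 values positive. Dhx58 had the smallest adjusted p, at 1.61 ± 0.0900 CPM in APP NLGF P16 KO and 1.21 ± 0.266 CPM in P16 KO (SD, n = 6 each; log2 0.41 ± 0.14, adjusted p = 0.412). The 2 groups overlapped in all 43 members, while 0.33% of all genes lay entirely above and 0.113% entirely below.

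Averaged over both p16 labels, 1 of 43 members, Ifit3b, rose with the App knock-in, beside 0.649% of all genes called higher and 0.793% in either direction, and all 43 values were positive (median log2 0.27, against 0.00 for all genes). Ifit3b was 1.51-fold higher (log2 0.60 ± 0.14, adjusted p = 0.0417), and its call ended with a term for sex (adjusted p = 0.0530) and in 17 of 23 fits without 1 library (up to 0.0752 without APP NLGF 17). DESeq2 called 3 members, all higher, beside 1% of all genes higher and 0.463% lower. The largest values after Ifi27l2a (log2 0.81 ± 0.29, adjusted p = 0.284) were those of Isg15 (log2 0.61 ± 0.19, adjusted p = 0.189) and Ifit3b. Without APP NLGF 17 the median was 0.17 and 0 members were called.

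Whether the P16 KO label acted differently with and without the App knock-in was tested by the interaction, the first difference minus the second. edgeR called 0 of 43 members and 0% of all genes, DESeq2 called 0 members, and 2 members, Herc6 and Isg20, had an unadjusted p under 0.05, both lower, beside 2.13% of all genes lower and 3.13% higher. Herc6 was at log2 -0.38 ± 0.14 (adjusted p = 0.897) and Isg20 at -0.64 ± 0.28 (adjusted p = 0.897). The median over the members was -0.22, with 34 of 43 values negative, against 0.00 for all genes, and -0.05 without APP NLGF 17. A difference between the 2 backgrounds was therefore not shown.

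**Figure D4:**
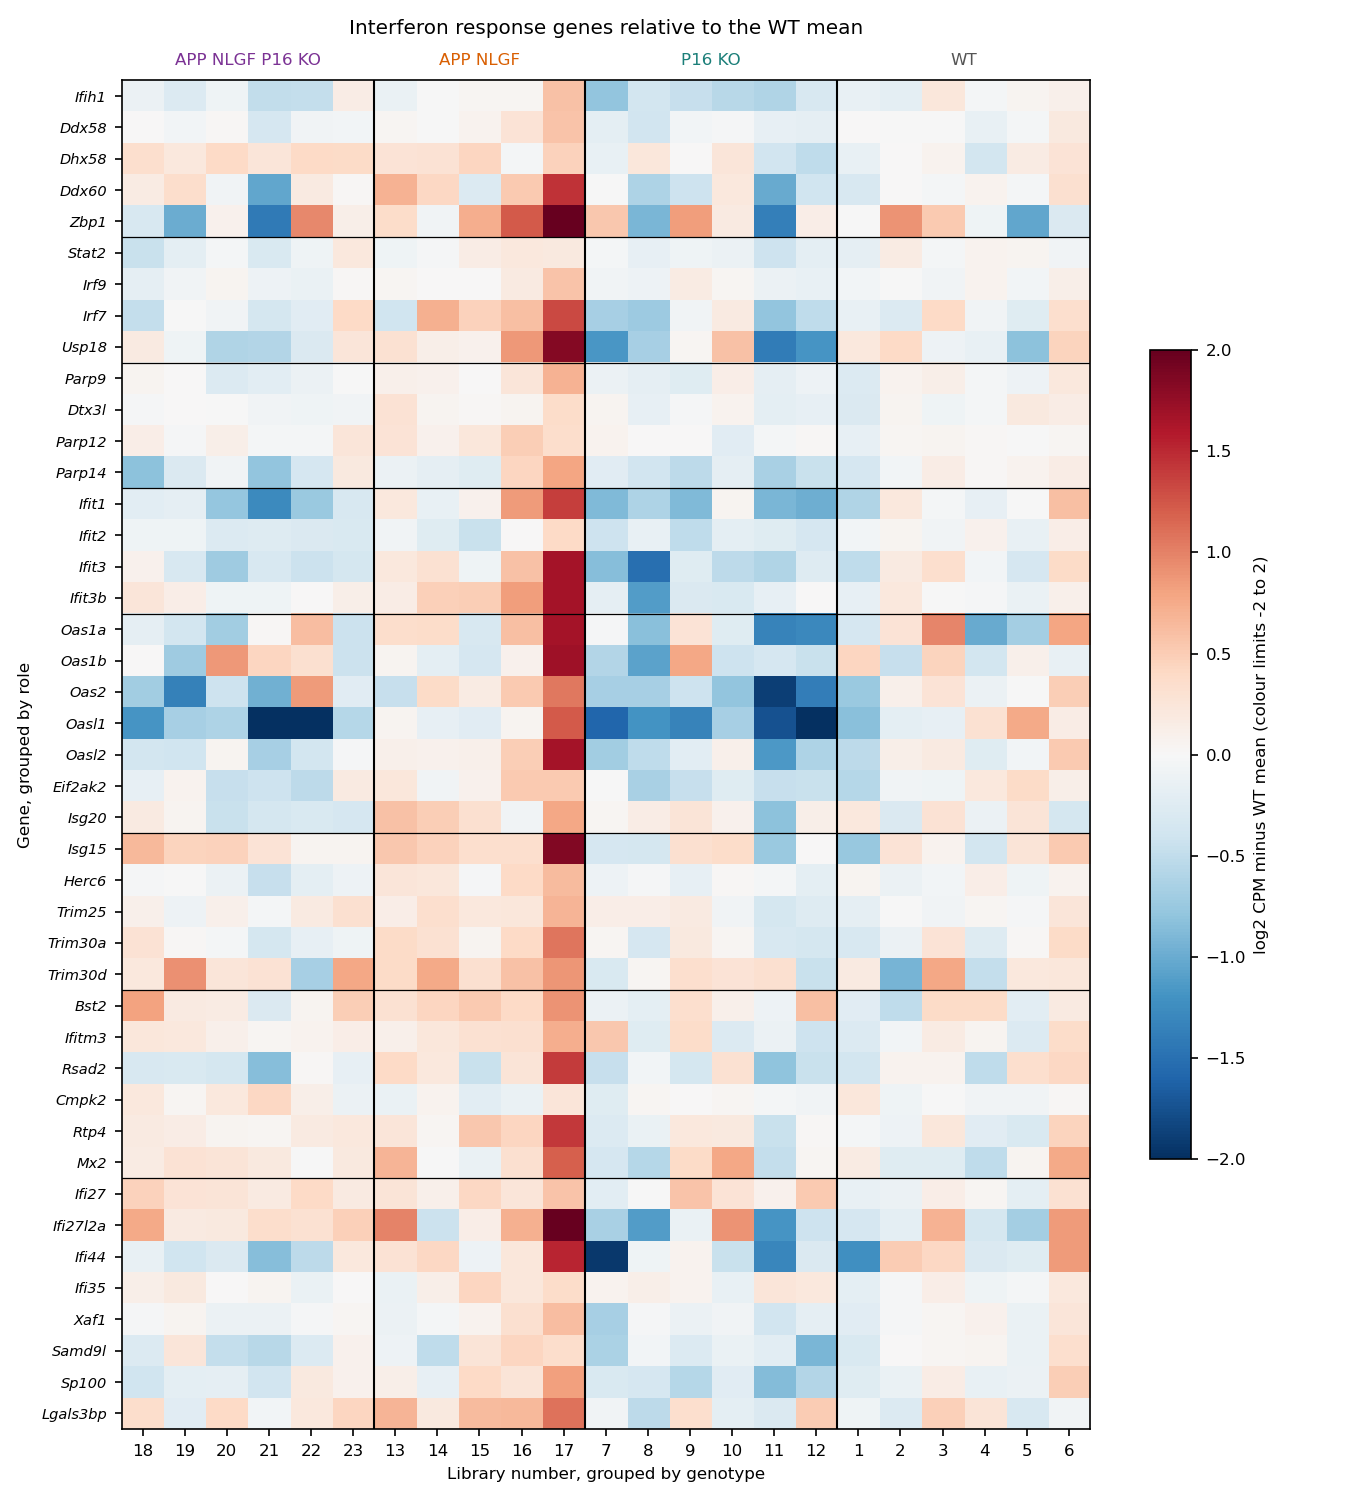
log2 CPM of each member tested minus its WT mean, in each library, with genotypes from APP NLGF P16 KO on the left to WT on the right and genes in the order of their roles; values past 2 in either direction share the end colours. The column of APP NLGF 17 is red for nearly all genes, and P16 KO 11 is the column with most genes at their lowest of the 23 libraries (10).

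The libraries of 1 genotype differed in the level of the members as a group. The median over the 43 members of the log2 difference from the WT mean was taken in each library. It ran from -0.29 to 0.08 in APP NLGF P16 KO, from 0.09 to 0.89 in APP NLGF, from -0.41 to 0.03 in P16 KO and from -0.20 to 0.24 in WT. All 5 APP NLGF libraries lay above all 6 APP NLGF P16 KO libraries by this median, but narrowly. The nearest were APP NLGF 14 at 0.088 and APP NLGF P16 KO 23 at 0.079. Within a genotype the members' median log2 CPM had an SD of 0.204. P16 KO and WT overlapped. APP NLGF 17 was highest of its group in 38 of 43 members (19.6% of all genes) and highest of all 23 libraries in 35 (4.12% of all genes). APP NLGF 16 followed with a median of 0.34, and APP NLGF 13, 14 and 15 had 0.22, 0.09 and 0.09. At the other end, P16 KO 11 was lowest of all 23 in 10 members (2.04% of all genes). Within P16 KO, library 10 was highest in 17 members (14.5% of all genes) and library 9 in 13 (18.8% of all genes). Within WT, library 6 was highest in 27 members (20.8% of all genes) and library 1 lowest in 21 (23.1% of all genes).

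**Figure D5:**
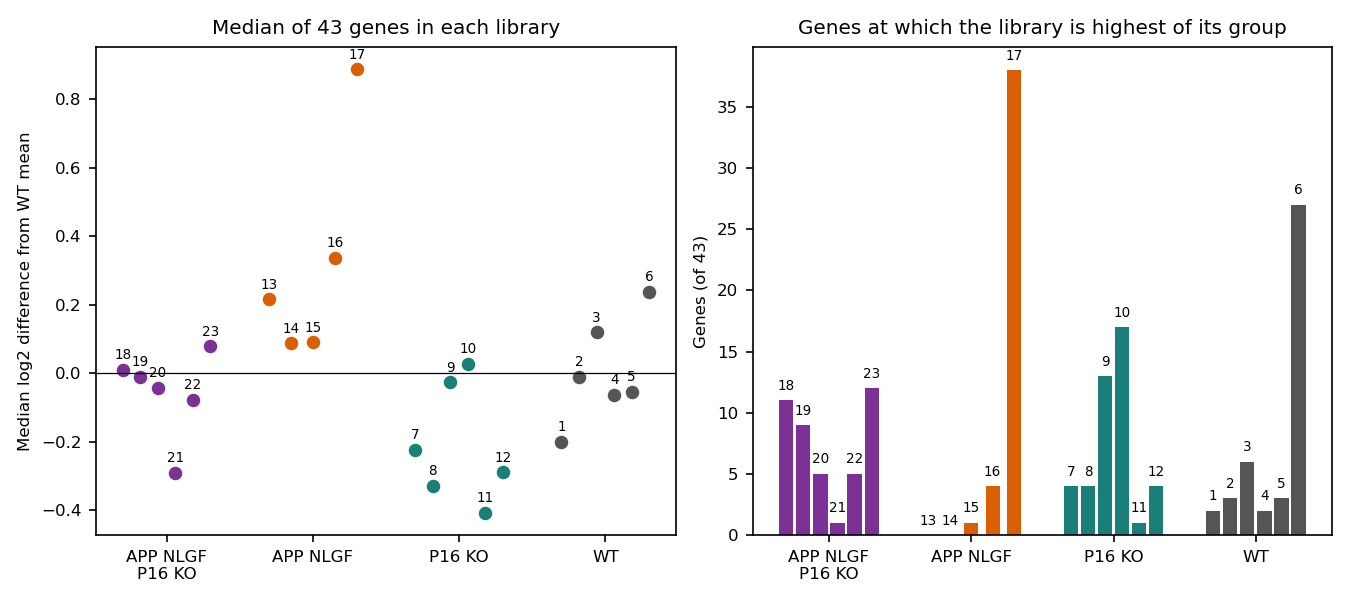
Left, median over the 43 members tested of the log2 CPM difference from the WT mean, 1 point a library; right, number of members at which the library was the highest of its group, as bars from 0. Numbers are library numbers, and APP NLGF 17 stands at 0.89 and 38 of 43.

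Other genes of the pathway, outside the 44, were taken from lists by function, and all counts below are of the average P16 KO effect unless another is named. In that contrast 5.32% of all genes were called lower and 7.66% higher. With such shares, 1 call in a short list is not read as a result about the list. Among 8 receptor and kinase genes, 0 fell and the interferon-gamma receptor gene Ifngr2 rose in the average P16 KO effect (log2 0.14 ± 0.04, adjusted p = 0.0381). Ifnar1 (log2 -0.01 ± 0.03) and Ifnar2 (log2 0.02 ± 0.05) had adjusted p = 0.844 and 0.773. Among 11 transcription factor and feedback genes, 1 fell, Nlrc5, the activator of class I antigen presentation genes, with 0.682 ± 0.0972 CPM in APP NLGF P16 KO, 1.20 ± 0.617 in APP NLGF, 0.592 ± 0.0979 in P16 KO and 0.810 ± 0.254 in WT (log2 -0.63 ± 0.19, adjusted p = 0.0314). Among 13 sensing and adaptor genes, 1 fell, the DNA sensor gene Cgas (log2 -0.56 ± 0.19, adjusted p = 0.0458). Of 5 genes that limit the cell's own nucleic acids, Rnaseh2c rose (log2 0.24 ± 0.08, adjusted p = 0.0459) and 0 fell. These 4 calls ended without APP NLGF 17, with adjusted p = 0.0688 for Ifngr2, 0.0688 for Nlrc5, 0.0719 for Cgas and 0.0634 for Rnaseh2c.

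Of 41 other interferon-stimulated genes tested, 6 fell and 2 rose in the average P16 KO effect (median log2 -0.14). Of all genes, 5.32% were called lower and 7.66% higher there. The falling ones were the dynamin-like Mx1 (log2 -0.96 ± 0.30, adjusted p = 0.0376), Rnf213 (log2 -0.63 ± 0.15), Slfn5 (log2 -0.61 ± 0.19), Ifi203 (log2 -0.57 ± 0.18), Trim56 (log2 -0.49 ± 0.13) and Helz2 (log2 -0.45 ± 0.13). Their adjusted p ran from 0.0162 for Rnf213 to 0.0417 for Ifi203. Tdrd7 (log2 0.13 ± 0.04) and Rbm43 (log2 0.26 ± 0.09) rose, with adjusted p = 0.0242 and 0.0497. Without APP NLGF 17, 3 of the 41 fell (Trim56, Helz2 and Rnf213), 1 rose (Tdrd7) and the median was -0.11. Of all genes, 2.21% were then called lower and 4.54% higher. Mx1 was then at log2 -0.65 (adjusted p = 0.0977). Of 14 GTPase genes that respond mainly to interferon gamma, 4 fell and all 14 values were negative (median log2 -0.28). They were Gbp3 (log2 -0.50 ± 0.13, adjusted p = 0.0183), Gbp5 (log2 -0.36 ± 0.10), Gbp7 (log2 -0.58 ± 0.15) and Iigp1 (log2 -0.48 ± 0.15). The GTPase genes summed to 73.1 CPM in APP NLGF 17, against 41.7 to 48.2 CPM in the other 4 APP NLGF libraries. Without APP NLGF 17, 3 fell (Gbp3, Gbp5 and Gbp7), 12 of 14 values were negative and the median was -0.22.

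Between APP NLGF and WT, 2 genes of these lists rose, beside 0.304% of all genes called higher. In the average over both p16 labels described below, 0.649% of all genes were called higher. Irf8, a factor of the microglial lineage, averaged 8.37 ± 1.19 CPM in APP NLGF and 4.84 ± 0.282 CPM in WT (SD, n = 5 and 6; log2 0.78 ± 0.11, adjusted p = 4.93e-04). Unc93b1, which carries nucleic acid receptors to the endosome, averaged 18.1 ± 1.14 CPM in APP NLGF and 13.8 ± 1.12 CPM in WT (log2 0.38 ± 0.08, adjusted p = 0.0327). Averaged over both p16 labels, Irf8 (log2 0.58 ± 0.08), Unc93b1 (log2 0.26 ± 0.06), the galectin gene Lgals9 (log2 0.29 ± 0.06), the immunoproteasome gene Psmb8 (log2 0.36 ± 0.08) and Gbp5 (log2 0.42 ± 0.10) rose, with adjusted p up to 0.0379. Irf8 and Unc93b1 kept both calls without APP NLGF 17, and Lgals9, Psmb8 and Gbp5 did not pass (adjusted p = 0.0692, 0.0893 and 0.0884).

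Marker levels of the cells present were as follows, and their part in the members' values was not tested. Homeostatic microglia markers summed to 543 to 588 CPM in APP NLGF P16 KO, 514 to 596 in APP NLGF, 453 to 487 in P16 KO and 417 to 477 in WT. In the average P16 KO effect, 0 of 12 of them fell, 1 rose (Tmem119) and their median log2 was 0.03. Of all genes, 7.66% were called higher there. Plaque-induced microglia markers summed to 146 to 172, 151 to 182, 103 to 125 and 107 to 130 CPM in the same order. Of these 9 markers, 0 were called in the average P16 KO effect (median log2 0.01), and 7 rose between APP NLGF and WT (median log2 1.29), where the 12 homeostatic markers had a median of 0.29. Choroid plexus markers were uneven, with 284 to 2587 CPM in APP NLGF P16 KO, 1497 to 3879 in APP NLGF, 608 to 5716 in P16 KO and 128 to 3263 in WT. All 6 had negative values in the average P16 KO effect (median log2 -0.33), and 0 were called. The 2 differences behind it went different ways. Without APP NLGF 17, 4 of 6 values were positive between P16 KO and WT (median log2 0.08). All 6 were negative between APP NLGF P16 KO and APP NLGF (median log2 -0.89). Of 8 endothelial markers, Flt1 and Kdr fell on average. Of 8 astrocyte markers, Gfap rose and Slc1a2 and Sox9 fell, and of 10 neuronal markers Slc17a7 rose. Beside these calls, 5.32% of all genes were called lower and 7.66% higher. Each of the 3 lists held values in both directions. Without APP NLGF 17, values were positive for 4 of 8 endothelial (median log2 0.03), 5 of 8 astrocyte (0.08) and 6 of 10 neuronal markers (0.02). The 5 border macrophage markers had a median log2 of -0.25 with 0 called. Tmem119, Sox9 and Flt1 kept their calls without APP NLGF 17, and Gfap, Slc1a2, Kdr and Slc17a7 lost theirs, with adjusted p of 0.0623 to 0.0688. Lymphocyte markers were scarce, summing to at most 8.07 CPM for T and NK cells and 0.618 CPM for B cells in any library.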

How the data were processed

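Per the labels, RNA from both hippocampi of each mouse was selected for polyA, made into stranded libraries from 350 ng with 12 PCR cycles and read as single 50-base reads. Per the submitters' processing notes, reads were trimmed with cutadapt 4.2, ribosomal reads removed with Bowtie2 2.3.5, and the rest aligned with STAR 2.7.10b to GRCm38 with Ensembl 102 genes. The notes also list mm39, and the coordinates deposited match GRCm38. The deposited values are raw read counts per gene, which the authors took from uniquely aligned reads assigned to 1 gene. Reads from copies of a gene are lost by this. No molecular identifiers were used, so statements on depth cover counting error only.

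From these counts, genes were kept by filterByExpr (minimum count 10) and fitted over all 23 libraries with 1 mean a genotype in edgeR 4.0.16 (TMM, robust quasi-likelihood F test, R 4.3.3). The biological coefficient of variation was 15.8%. The 7 contrasts were each adjusted by Benjamini-Hochberg over 19423 genes. Whether animals shared a litter or a preparation day is not given in the sources used here, so p-values measure the spread between these libraries. Alternatives were DESeq2 1.42.0, other scalings and filters, the compared groups alone, a term for sex, each sex alone (sex read from transcripts, added after the data were seen) and each library left out. The scripts were tested on simulated counts. Promoters came from RefSeq (GRCm38.p6).

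The members and the other lists were chosen with earlier results of these data known. The spread over libraries (each APP NLGF value, and the lowest, median and highest of the groups of 6) is given for every member called in a contrast, and in each role for the one with the highest level and the one with the smallest p between APP NLGF and WT. Genes singled out beyond that were chosen after their values were seen. One gene of the pathway lists is not reported here.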

Additional observations from a re-analysis of the deposited data

Results flagged for a closer look

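In 19 of 172 groups tested, 1 library stood apart from the rest of its genotype by Dixon's test at the 95% level, in 17 genes. The test was run on CPM, not on a log scale. Chance marks about 1 group in 20. The genes were measured in the same libraries, so the groups are not independent and an excess over chance was not tested. APP NLGF 17 was the high library in 11 of the 19. It had 7.35 CPM of Ifih1, 18.1 of Irf9, 7.52 of Parp9, 13.7 of Ifit3, 1.33 of Oas1b and 0.688 of Oasl1. It also had 11.2 CPM of Oasl2, 3.44 of Isg15, 5.73 of Trim30a, 5.70 of Rtp4 and 2.06 of Ifi44. It had the fewest counts of the 23 libraries, and the part of depth in these values was not tested.

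In APP NLGF P16 KO, library 21 was low in Ddx58 (5.20 CPM) and library 22 high in Oas2 (0.947 CPM). In P16 KO, library 10 was high in Parp9 (5.05 CPM), Ifit1 (2.48 CPM) and Ifi27l2a (1.29 CPM), and library 9 in Oas1b (0.682 CPM). Also in P16 KO, library 8 was low in Ifit3b (0.997 CPM) and library 11 in Isg20 (0.405 CPM). No WT library stood apart in any member.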

How the results depend on the processing

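No paired analysis was possible because the genotypes share no replicate numbers. Of 521 values of named members under the alternatives, 432 kept direction and call, 89 lost the call with the same direction and 0 reversed; 83 of the lost calls came from leaving out 1 library. Of 635 counts and medians, 554 were kept.

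With DESeq2, APP NLGF against WT had 3 members and 153 genes called, P16 KO against WT 1 and 469, APP NLGF P16 KO against APP NLGF 676 genes, APP NLGF P16 KO against P16 KO 101 genes, the interaction 1 gene, and the average APP NLGF effect 3 members and 285 genes. With the compared groups alone, P16 KO against WT had 1 member and 356 genes, APP NLGF P16 KO against APP NLGF 0 genes and against P16 KO 19. With no count filter, APP NLGF P16 KO against APP NLGF had 17 genes and the average P16 KO effect 1364. With a sex term the average APP NLGF effect had 0 members. By transcripts, APP NLGF held 2 females and 3 males, and each other group 3 of each. APP NLGF 17 was male, so the fit of females alone left it out and that of males alone kept it. Among females alone the members' median log2 was 0.10 for APP NLGF against WT and -0.23 for APP NLGF P16 KO against APP NLGF. For the interaction it was 0.075, reversed, among females and -0.44 among males. Over both sexes without APP NLGF 17 the interaction median was -0.05. Males without APP NLGF 17 were not fitted, so these fits do not separate sex from this library, and the cause was not tested. By the members' median log2 difference from the WT mean, the males APP NLGF 13 and 14 stood at 0.22 and 0.09. The females APP NLGF 15 and 16 stood at 0.09 and 0.34.

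Leaving out 1 library gave 0 to 1 members for APP NLGF against WT, 0 to 2 for P16 KO against WT, 0 to 19 for APP NLGF P16 KO against APP NLGF, 0 to 1 for the average APP NLGF effect and 9 to 23 for the average P16 KO effect. Genes called ran from 47 to 72, 7 to 239, 2 to 4156, 29 to 61 (APP NLGF P16 KO against P16 KO), 0 to 0 (interaction), 110 to 159 (average APP NLGF) and 762 to 5117 (average P16 KO). The medians in that order ran from 0.19 to 0.44, -0.25 to -0.16, -0.56 to -0.21, 0.10 to 0.22, -0.31 to -0.05, 0.17 to 0.32 and -0.36 to -0.23. Depth limits Oasl1, Zbp1 and Oas3 most.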
